A study of Homo sapiens with 36 samples.

Results

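The 10 genes described here encode AP-1 subunits and related immediate early transcription factors: JUN, JUNB, JUND, FOS, FOSB, FOSL1, FOSL2, ATF3, EGR1 and EGR2. They were taken by gene symbol and are 10 of 59041 genes with summed counts. RNA was sequenced from 3 acute myeloid leukemia (AML) cell lines, HL60, MOLM13 and OCIAML3, each after 24 h with 0.1 µM cytarabine, with daunorubicin at 0.02 µM, with the combination of both at those concentrations, or with the solvent DMSO. Each of the 12 groups had 3 libraries labelled as biological replicates, 36 libraries in all. The sources do not say whether the replicates were separate cultures or days, and the p-values therefore reflect only how much these libraries varied, which may be technical. Cytarabine is a nucleoside analog that is built into DNA and stalls its synthesis, and daunorubicin, of the anthracycline class, slips between DNA bases and traps topoisomerase II on DNA. Each line is 1 long-cultured line, so that a difference between lines is a difference between these 3 lines and not between kinds of patients.

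AP-1 is a dimer of basic leucine zipper proteins. A JUN family protein (JUN, JUNB or JUND) pairs with another JUN protein, with a FOS family protein (FOS, FOSB, FOSL1 or FOSL2) or with an ATF protein such as ATF3, and FOS proteins do not form stable dimers with each other. EGR1 and EGR2 are zinc finger factors that bind GC-rich sites. The genes are known as immediate early genes because growth factors and stress switch on several of them within minutes without new protein synthesis, through kinases that act on serum response factor and its partners, on CREB and on JUN itself. In myeloid cells AP-1 and EGR factors are known for their part in monocyte differentiation, and JUN and ATF3 for their response to DNA damage.

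Stretches before the start sites of 4 members are shown because these genes had among the largest changes in one or more lines. Each has 150 bases that end just before the annotated start, 5′ to 3′ on the gene's own strand, from RefSeq on GRCh38.p14. Capitals mark the JUN-type site (TGACATCA) and the CRE core (TGACG, or CGTCA on the other strand) in JUN, the serum response element core known as the CArG box and the CRE core in EGR1 and EGR2, and the CRE core in FOS, whose TATA box (TATAAA) is left in lower case. JUN is at chr1:58784048-58784197 on the minus strand, EGR1 at chr5:138465329-138465478 on the plus strand, EGR2 at chr10:62816367-62816516 on the minus strand and FOS at chr14:75278678-75278827 on the plus strand.
JUN: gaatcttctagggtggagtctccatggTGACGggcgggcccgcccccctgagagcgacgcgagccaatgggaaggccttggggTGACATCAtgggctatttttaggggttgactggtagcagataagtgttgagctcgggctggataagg
EGR1: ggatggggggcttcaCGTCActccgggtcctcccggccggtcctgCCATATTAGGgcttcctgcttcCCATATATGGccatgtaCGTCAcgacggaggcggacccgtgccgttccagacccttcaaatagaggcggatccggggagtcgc
EGR2: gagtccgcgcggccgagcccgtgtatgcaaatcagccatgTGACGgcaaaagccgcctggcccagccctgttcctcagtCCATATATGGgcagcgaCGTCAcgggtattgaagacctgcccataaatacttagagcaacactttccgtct
FOS: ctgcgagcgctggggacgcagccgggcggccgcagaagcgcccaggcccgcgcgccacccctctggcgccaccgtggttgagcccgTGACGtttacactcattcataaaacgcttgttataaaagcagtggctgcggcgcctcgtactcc

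Counted back from the start, the JUN-type site of JUN covered bases -67 to -60 and its CRE core bases -123 to -119. EGR1 held CArG boxes at bases -105 to -96 and -83 to -74, and EGR2 held 1 at bases -71 to -62. FOS held the CRE core at bases -64 to -60 and TATAAA at bases -33 to -28. Windows of 300 bases, 250 before and 50 after the start, were found for 9 of the 10 members (none for FOSL1), 12 windows in all. On either strand, the CRE core stood in windows of JUN, JUNB, JUND, FOS, FOSB, FOSL2, EGR1 and EGR2, which is 8 of 9 members, and in 24.6% of all 35116 windows. A CArG box stood in windows of 2 members, EGR1 and EGR2, and in 1.29% of all windows. Sites more than 250 bases before the start were not searched, for FOS or any other member. The JUN-type site was found for JUN and ATF3, and in 2.61% of all windows. The full CRE (TGACGTCA, which contains the CRE core) stood in the window of JUND and in 1.85% of all, the AP-1 site TGANTCA in that of FOSL2 and in 7.71% of all, and the EGR site GCGNGGGCG in windows of EGR1 and EGR2 and in 9.43% of all. The EGR2 window with the EGR site is not the one shown, and transcripts that start there held 2.18% of the EGR2 counts, against 94.2% for the one shown. TATAAA was found for JUNB, FOS, FOSB and ATF3, and in 11.5% of all windows. The letters are a description of these windows. Both ATF3 windows start where transcripts with 0% and 1.03% of the ATF3 counts start, so the ATF3 promoter in use was not covered. The CRE core and TATAAA were added to the motifs after the windows had been seen.

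JUN and ATF3 share chromosome 1, and JUNB, JUND and FOSB share chromosome 19. In GENCODE 44 on GRCh38, JUN spans chr1:58776845-58784048, ATF3 chr1:212565334-212620777, FOSL2 chr2:28392448-28417317, EGR1 chr5:138465479-138469303 and EGR2 chr10:62811996-62819167. FOSL1 spans chr11:65892049-65900573, FOS chr14:75278826-75282230, JUNB chr19:12791486-12793315, JUND chr19:18279694-18281622 and FOSB chr19:45467995-45475179. The libraries were unstranded, so reads of overlapping genes on opposite strands cannot be told apart. JUNB shares 259 of its 1830 exonic bases with HOOK2 on the other strand, and HOOK2 averaged 16.5 CPM in cytarabine-treated, against 7.01 CPM in DMSO-treated HL60 cells. FOSB and ERCC1 overlap but share no exonic bases.

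Total estimated counts per library lay between 25067734 and 47322144 (median 32194478). Values below are in CPM, counts relative to the TMM-normalized library size, given for replicates 1, 2 and 3 in that order. A gene was called higher or lower at an edgeR adjusted p under 0.05 with a log2 fold change above 1 or below -1, and fold changes carry their standard error. The mitochondrial share of the counts in HL60 was 6.19 to 7.34% with cytarabine, 5.47 to 6.45% with daunorubicin and 5.95 to 7.73% with the combination, against 4.61 to 5.36% with DMSO, and 5.71 to 6.75% in treated MOLM13 libraries, against 4.84 to 5.03% with DMSO. Its part in the results was not tested. In bulk RNA, fewer cells of a type and less RNA per cell cannot be told apart. Among marker lists, 12 myeloid markers summed to between 1502 and 10642 CPM in every library, whereas erythroid and epithelial markers summed to at most 0.399 and 0.262 CPM and T cell markers to at most 1.60 CPM.

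In OCIAML3, 2 libraries stood apart from the others of their groups. Over 16610 genes other than the members, log2 differences from the DMSO mean were correlated between a library and group means. For the library labelled cytarabine replicate 3 they were 0.256 with the other cytarabine libraries, 0.587 with daunorubicin and 0.570 with the combination. Cytarabine replicates 1 and 2 had a similar 0.262 and 0.291 with their own group. With daunorubicin they had 0.233 and 0.213, and with the combination 0.233 and 0.242. For the library labelled combination replicate 3 the correlation was 0.0576 with the other combination libraries, against 0.609 and 0.689 for combination replicates 1 and 2, and it was 0.311 with cytarabine and 0.139 with daunorubicin. These correlations are descriptions across genes, and the groups share the DMSO libraries. Of the 10 members, 8 were higher in the library labelled cytarabine replicate 3 than in both other cytarabine libraries, and 0 were above every DMSO library in the library labelled combination replicate 3. The same counts over all genes were not made, so these member counts are a description only. Across genes the library labelled cytarabine replicate 3 thus went more with daunorubicin and the combination than cytarabine replicates 1 and 2 did. The library labelled combination replicate 3 went less with its own group than combination replicates 1 and 2 did. What the values of these 2 libraries stand for is uncertain. The OCIAML3 comparisons of the members are given with and without them.

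Before drug, the order of the members in TPM, a scale that divides by transcript length and library total, was led by JUND and JUNB in all 3 lines. In DMSO-treated HL60 cells JUND had 49.4 ± 9.92 TPM and JUNB 36.1 ± 2.01 TPM (SD, n = 3), in MOLM13 217 ± 39.7 and 47.1 ± 3.24 TPM, and in OCIAML3 38.6 ± 0.305 and 56.5 ± 4.52 TPM. Every library kept JUND above JUNB in HL60 and MOLM13 and JUNB above JUND in OCIAML3. In HL60, FOSL2 (3.33 ± 0.115 TPM), FOSL1 (2.62 ± 0.601), ATF3 (2.20 ± 0.809), EGR1 (2.02 ± 1.39) and JUN (1.63 ± 0.636) followed with neighbours whose libraries overlapped, and FOS, FOSB and EGR2 averaged under 1 TPM. In MOLM13 and OCIAML3 FOSL2 and FOS came next, with 19.2 ± 2.33 and 18.2 ± 0.764 TPM in MOLM13 and 35.0 ± 1.56 and 34.4 ± 2.67 TPM in OCIAML3. FOSL2 and FOS overlapped each other in both lines, and both lay above FOSL1 in every library. EGR2 had the lowest mean in all 3 lines.

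**Figure D1:**
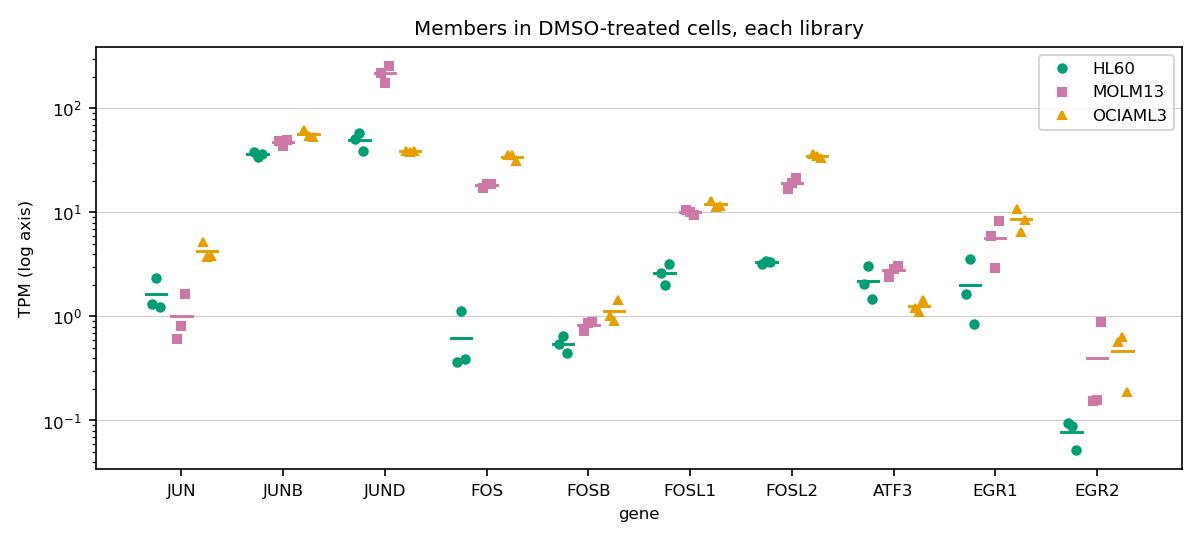
Level of each member in DMSO-treated cells of the 3 lines, in TPM on a log axis; points are libraries and bars are means (n = 3). JUND and JUNB are the highest members in each line, and FOS, FOSL1 and FOSL2 sit lower in HL60 than in MOLM13 and OCIAML3.

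DMSO-treated HL60 cells had less FOS, FOSL1 and FOSL2 than the other lines. FOS, the founding FOS protein, had 0.705, 1.88 and 0.696 CPM in HL60, against 23.6, 26.9 and 25.02 CPM in MOLM13 and 45.5, 43.4 and 35.3 CPM in OCIAML3. FOSL2, a FOS family protein without the strong activation domain of FOS, had 22.5, 20.5 and 21.8 CPM in HL60, against 100.4, 116 and 132 in MOLM13 and 173, 165 and 157 in OCIAML3. The HL60 libraries lay below all those of the other lines for both genes. In edgeR over all 36 libraries, HL60 was lower than MOLM13 in 5 members, against 20.2% of 19053 genes called lower: FOS (-4.51 ± 0.73 on the log2 scale, adjusted p = 5.64e-06), FOSL2 (-2.43 ± 0.17), FOSL1 (-1.85 ± 0.26), JUND (-2.10 ± 0.24) and EGR2 (-2.49 ± 0.80). Without MOLM13 DMSO replicate 3, where EGR2 had 2.15 CPM against 0.253 and 0.380 in the other 2, the EGR2 difference was -0.95 and was not called.

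HL60 was also lower than OCIAML3 in 5 members (24.5% of genes were called lower): FOS (-5.23 ± 0.74, adjusted p = 4.36e-07 in edgeR), FOSL2 (-2.93 ± 0.17), FOSL1 (-1.81 ± 0.26), EGR2 (-2.22 ± 0.80) and EGR1 (-1.75 ± 0.69). ATF3, a stress-induced member of the ATF family, was higher in HL60 than in OCIAML3 by 1.16 ± 0.48 (adjusted p = 0.0382; 12.5% of genes were called higher), a call that the newer quasi-likelihood method of edgeR did not make (adjusted p = 0.0777). The ATF3 call was lost without DMSO replicate 1 or 2 of either line (0.90 at the lowest), that of EGR1 without DMSO replicate 1 of OCIAML3 or DMSO replicate 1 or 3 of HL60, and that of EGR2 without DMSO replicate 1 of OCIAML3 or DMSO replicate 2 or 3 of HL60. Between MOLM13 and OCIAML3, JUND was higher in MOLM13 by 2.88 ± 0.25 (adjusted p = 6.30e-11) and ATF3 by 1.45 ± 0.48, 2 members against 13.3% of genes, and JUN was lower in MOLM13, at -1.77 ± 0.61 (adjusted p = 0.0146), 1 member against 16.7%. Without MOLM13 DMSO replicate 1 or 2 the JUN call was lost. Without the 2 OCIAML3 libraries that stood apart, which are not DMSO libraries, the same members were called in both comparisons with OCIAML3. JUND is the JUN protein that is present in many resting cells, and its DMSO libraries did not overlap between these lines (392, 309 and 413 CPM in MOLM13, against 51.7, 51.6 and 48.1 in OCIAML3).

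Cytarabine raised 9 of the 10 members in HL60, and only FOSL1 was not called. The 9 stand against 13.7% of 15608 genes called higher (3.12% were called lower), and the median log2 fold change of the 10 members was 2.87, against 0.0094 over all genes. JUN, the most potent activator among the JUN proteins, had 472, 85.7 and 272 CPM in cytarabine-treated cells, against 5.01, 7.67 and 4.31 CPM in DMSO-treated cells. The lowest cytarabine library was more than 10 times the highest DMSO library, although the cytarabine libraries differed widely among themselves. The log2 fold change of JUN was 5.55 ± 0.63 (adjusted p = 2.46e-05 in edgeR). ATF3 had 171, 40.2 and 114 CPM after cytarabine, against 3.68, 4.86 and 2.49 CPM with DMSO, and a log2 fold change of 4.82 ± 0.49 (adjusted p = 1.26e-05). EGR1 had 169, 11.3 and 52.2 CPM, against 5.23, 9.68 and 2.49 CPM. Cytarabine replicate 2 was little above the highest DMSO library and the other 2 were far above it, and the log2 fold change was 3.68 ± 0.91 (adjusted p = 0.00483).

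EGR2, known from myeloid cells for its part in macrophage differentiation, was low throughout in HL60, with 3.41, 0.587 and 3.12 CPM after cytarabine, against 0.260, 0.101 and 0.133 CPM with DMSO, where it rested on 7, 3 and 4 counts. The log2 fold change of EGR2 was 3.78 ± 0.68 (adjusted p = 0.000611 in edgeR), and the groups did not overlap. FOSL2 had 78.9, 83.9 and 97.8 CPM, against 22.5, 20.5 and 21.8 CPM. It was the most even of the members between replicates, and its log2 fold change of 1.96 ± 0.12 had the smallest standard error and the lowest adjusted p (6.95e-07). JUNB, a JUN protein that often counters JUN, had 261, 104 and 285 CPM, against 82.9, 60.5 and 71.9 CPM (1.54 ± 0.30, adjusted p = 0.00104). All cytarabine libraries were above all DMSO libraries, and replicate 2 was again the lowest.

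FOSB, which also makes a truncated protein that lasts long in neurons, had 14.8, 3.49 and 11.9 CPM after cytarabine, against 2.12, 2.01 and 1.23 CPM with DMSO (2.44 ± 0.50, adjusted p = 0.00138 in edgeR). FOS had 26.1, 3.49 and 4.09 CPM, against 0.705, 1.88 and 0.696 CPM. Replicate 1 carried most of the FOS difference: the log2 fold change was 3.29 ± 0.89 with all libraries (adjusted p = 0.00839) and 1.73, no longer called, without cytarabine replicate 1. JUND had 232, 113 and 200.3 CPM, against 111, 76.0 and 72.2 CPM, and its log2 fold change of 1.02 ± 0.25 (adjusted p = 0.00442) lay at the fold threshold. It was not called without cytarabine replicate 1 (0.80) or 3 or without DMSO replicate 2 or 3. FOSL1, known as FRA-1 and best studied in invasive carcinoma cells, had 2.98, 1.79 and 4.82 CPM, against 3.601, 2.48 and 4.41 CPM, which overlapped (-0.18 ± 0.36, adjusted p = 0.708). For the 9 other members every cytarabine library was above every DMSO library, which held for 30% of all genes.

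The combination raised the same 9 members in HL60, against 17% of genes called higher (6.29% were called lower). JUN had 564, 239 and 240.3 CPM after the combination, against the DMSO values above, and ATF3 had 246, 147 and 109 CPM. Their log2 fold changes were 5.87 ± 0.64 (adjusted p = 8.16e-06 in edgeR) and 5.45 ± 0.50 (adjusted p = 2.60e-06). EGR1 had 232, 59.4 and 33.1 CPM and EGR2 3.53, 1.91 and 2.84 CPM (4.15 ± 0.92 and 3.996 ± 0.68). FOS had 41.5, 9.69 and 5.25 CPM (4.03 ± 0.91, adjusted p = 0.00204), again with replicate 1 the highest. FOSB (3.13 ± 0.50), FOSL2 (2.32 ± 0.13), JUNB (1.61 ± 0.30) and JUND (1.26 ± 0.25) were also called. FOSL1 was not, at -0.28 ± 0.36 (adjusted p = 0.532). Every combination library was above every DMSO library for the 9 called members, against 33.6% of genes, and all 9 calls held in each fit that left out 1 library.

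**Figure D2:**
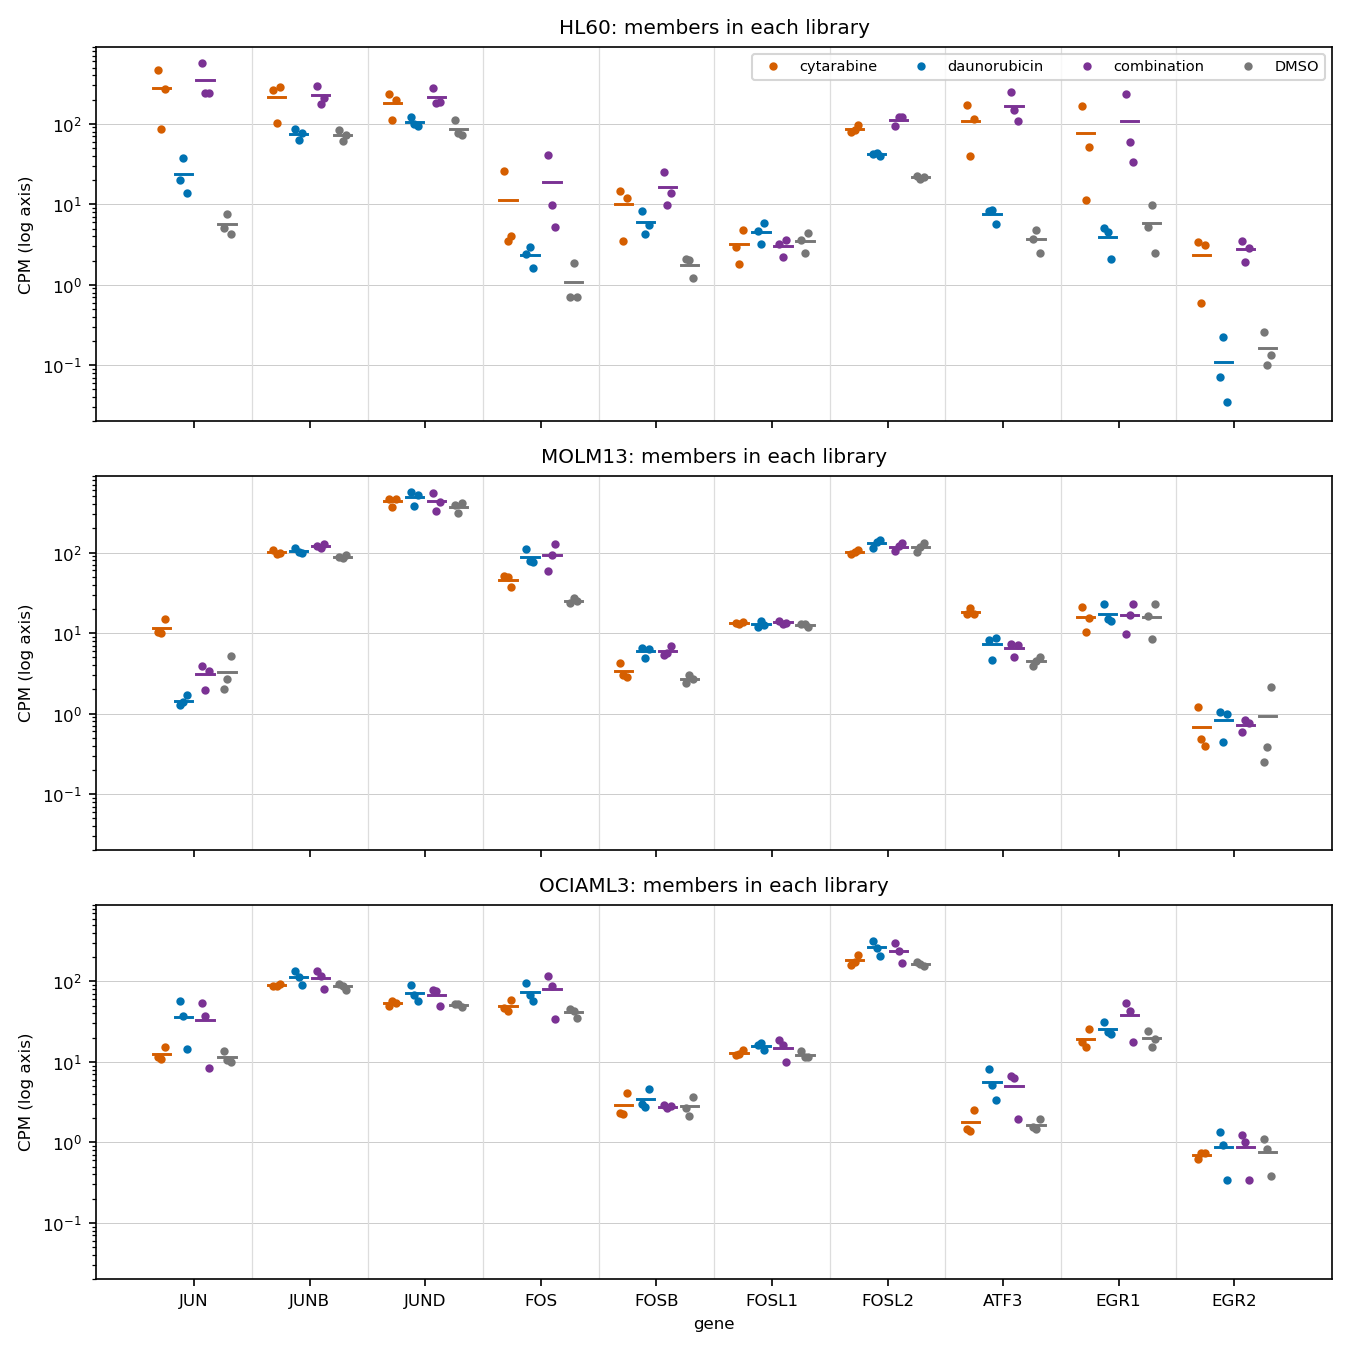
CPM of each member in each library, on a log axis, by line and treatment, with each treatment to the left of DMSO; points are libraries and bars are group means (n = 3). In HL60 the cytarabine and combination libraries of JUN lie between 85.7 and 564 CPM and the DMSO libraries between 4.31 and 7.67 CPM, while FOSL1 stays between 1.79 and 5.81 CPM.

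Daunorubicin alone raised 2 members in HL60, against 6.76% of genes called higher (0.538% were called lower). JUN had 20.3, 37.9 and 14.0 CPM in daunorubicin-treated cells, against 5.01, 7.67 and 4.31 CPM in DMSO-treated cells, with a log2 fold change of 2.06 ± 0.57 (adjusted p = 0.0214 in edgeR). FOSB had 8.25, 4.32 and 5.53 CPM, against 2.12, 2.01 and 1.23 CPM (1.73 ± 0.49, adjusted p = 0.0245). Neither gene overlapped with DMSO, yet the JUN call was lost without daunorubicin replicate 2 (1.57) or DMSO replicate 1 or 3, and the FOSB call without daunorubicin replicate 1 (1.44) or any 1 DMSO replicate. FOSL2 had 42.4, 43.2 and 39.5 CPM and passed the adjusted p (0.000324) but not the fold threshold, at 0.92 ± 0.12. ATF3 had 8.36, 8.56 and 5.74 CPM, each above its DMSO libraries, and 1.01 ± 0.47 (adjusted p = 0.143). These 4 genes were the members whose daunorubicin libraries were all above DMSO, which held for 21.8% of genes. EGR1 (5.13, 4.52 and 2.06 CPM, -0.60 ± 0.92) and EGR2 (0.0717, 0.225 and 0.0350 CPM, -0.49 ± 0.86) had lower means than with DMSO, at adjusted p = 0.696 and 0.734. JUNB, JUND, FOS and FOSL1 had log2 fold changes between 0.04 and 1.06, at adjusted p between 0.432 and 0.934.

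Tested directly, 6 members were higher after cytarabine than after daunorubicin in HL60, against 3.28% of genes. EGR1 (4.28 ± 0.94), EGR2 (4.27 ± 0.71), ATF3 (3.81 ± 0.46) and JUN (3.49 ± 0.56) differed most, with edgeR adjusted p between 0.00053 and 0.0102. JUNB (1.496 ± 0.30) and FOSL2 (1.04 ± 0.12) were also called. FOS differed by 2.23 ± 0.83 (adjusted p = 0.0819) and FOSB by 0.71 ± 0.46 (adjusted p = 0.313). In HL60 the replicate numbers were taken as pairing the libraries, which the labels do not state, and the tests above had no term for it. With replicate number as a block in edgeR, FOS was also called, at 1.75 (adjusted p = 0.0344), when 4.42% of genes were called higher. Without cytarabine replicate 3 the FOSL2 difference was 0.94, and without daunorubicin replicate 3 EGR1 lost its call.

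In MOLM13 cells, cytarabine gave higher ATF3 and JUN, and daunorubicin and the combination gave higher FOS and FOSB. The 2 members called after cytarabine stand against 7.11% of 16184 genes called higher (1.03% were called lower). ATF3 had 17.5, 20.5 and 17.0 CPM in cytarabine-treated cells, against 3.90, 4.46 and 5.10 CPM in DMSO-treated cells, and JUN had 10.3, 9.99 and 14.7 CPM, against 2.02, 2.70 and 5.24 CPM. The groups of both genes did not overlap. The log2 fold changes were 2.03 ± 0.23 for ATF3 (adjusted p = 0.000118 in edgeR) and 1.81 ± 0.34 for JUN (adjusted p = 0.00197). FOS passed the adjusted p but not the fold threshold, with 50.7, 49.5 and 37.7 CPM, against 23.6, 26.9 and 25.02 CPM (0.87 ± 0.25, adjusted p = 0.0173). The cytarabine libraries were all above DMSO for 5 members, ATF3, FOS, JUNB, FOSL1 and JUN, against 26.4% of genes.

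After daunorubicin, FOS and FOSB were called higher in MOLM13 (11.3% of genes) and JUN lower (5.71% of genes). FOS had 111, 79.4 and 76.5 CPM in daunorubicin-treated cells, against 23.6, 26.9 and 25.02 CPM in DMSO-treated cells, and FOSB had 6.58, 4.85 and 6.29 CPM, against 2.39, 3.04 and 2.71 CPM. Both rose without overlap, by 1.85 ± 0.25 (adjusted p = 0.000109 in edgeR) and 1.15 ± 0.20 (adjusted p = 0.000663) on the log2 scale. JUN had 1.27, 1.38 and 1.68 CPM, every library below the DMSO libraries (2.02, 2.70 and 5.24 CPM), and a log2 fold change of -1.17 ± 0.36 (adjusted p = 0.0175). This call was lost without daunorubicin replicate 1 or without DMSO replicate 3 (-0.68 without DMSO replicate 3), and in a fit of all 36 libraries together (-1.21, adjusted p = 0.196). JUNB (0.28 ± 0.08, adjusted p = 0.00965) and ATF3 (0.71 ± 0.23, adjusted p = 0.0218) passed the adjusted p alone. All daunorubicin libraries were above DMSO for FOSB, FOS and JUNB (30.3% of genes) and below it for JUN (31.7% of genes).

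The combination gave calls like those of daunorubicin in MOLM13 for 2 members, against 11.8% of genes called higher (5.61% were called lower). FOS had 59.8, 92.9 and 129 CPM after the combination (1.93 ± 0.25, adjusted p = 8.76e-05 in edgeR) and FOSB 5.29, 5.73 and 6.89 CPM (1.16 ± 0.20, adjusted p = 0.000606). JUN had 3.93, 1.99 and 3.35 CPM, which overlapped with DMSO (-0.08 ± 0.34, adjusted p = 0.864). ATF3 had 7.37, 5.06 and 7.11 CPM, against 3.90, 4.46 and 5.10 CPM with DMSO, and did not pass (0.56 ± 0.23, adjusted p = 0.0572). FOSB, FOS, JUNB and FOSL1 were above DMSO in every combination library, 4 members against 29.3% of genes. JUNB, JUND, FOSL1, FOSL2, EGR1 and EGR2 were not called under any treatment in MOLM13. EGR1 lay at 10.4 to 21.1 CPM after cytarabine, 14.1 to 22.7 CPM after daunorubicin and 9.61 to 23.3 CPM after the combination, against 8.37 to 23.2 CPM with DMSO.

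Set directly against daunorubicin in MOLM13, cytarabine gave higher JUN (2.98 ± 0.37, adjusted p = 0.00127 in edgeR) and ATF3 (1.32 ± 0.22, adjusted p = 0.00326), 2 members against 3.65% of genes. FOS (-0.98 ± 0.24, adjusted p = 0.014) and FOSB (-0.84 ± 0.20, adjusted p = 0.0119) passed the adjusted p in the other direction without reaching the fold threshold. JUN and ATF3 of the cytarabine libraries did not overlap with the daunorubicin libraries.

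The combination was compared with the sum of the 2 single effects on the log2 scale. ATF3 in MOLM13 was the 1 member that differed from that sum, by -2.18 ± 0.32 (adjusted p = 0.00187 in edgeR), when 8.85% of genes were non-additive in the same direction: the ATF3 effect was 0.56 after the combination, 2.03 after cytarabine and 0.71 after daunorubicin. In HL60 0 members passed (5.14% of genes did), and 2 had an unadjusted p under 0.05 (20.8% of genes). DESeq2 called 1 in HL60, FOSL2, and its calls over all genes were not counted. In HL60 JUN departed from the sum by -1.74 ± 0.76 (adjusted p = 0.21) and FOSL2 by -0.56 ± 0.17 (adjusted p = 0.0743). With replicate number as a block, FOSL2 passed in HL60 at -0.56 (adjusted p = 0.0178), when 10.7% of genes passed in that direction. In OCIAML3 0 members passed by edgeR or DESeq2, 0 had an unadjusted p under 0.05 (2.53% of genes), and 0% of genes passed. Without the 2 libraries that stood apart 0 members and 0% of genes passed there by edgeR, and EGR1 alone had an unadjusted p under 0.05, which 5.14% of genes had, at 1.14 ± 0.29 (adjusted p = 0.827).

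In OCIAML3 0 members were called under any treatment by edgeR with all 12 libraries, as were 0% of the 16650 genes. Unadjusted p was under 0.05 for 0 members after cytarabine (1.53% of genes), for 6 after daunorubicin (30.5%) and for 6 after the combination (23.3%). DESeq2 called 1 member, ATF3 after daunorubicin, and the share of all genes that DESeq2 called was not counted. JUN had 57.4, 36.8 and 14.6 CPM after daunorubicin and 54.6, 37.1 and 8.38 CPM after the combination, against 13.6, 10.5 and 9.98 CPM with DMSO. ATF3 had 8.18, 5.19 and 3.37 CPM after daunorubicin and 6.77, 6.37 and 1.93 CPM after the combination, against 1.54, 1.48 and 1.94 CPM. In both genes replicate 3 was the lowest library of either treatment, and in the combination it lay within or below the DMSO range. With all libraries the daunorubicin log2 fold changes were 1.65 ± 0.58 for JUN (adjusted p = 0.126) and 1.73 ± 0.46 for ATF3 (adjusted p = 0.122). Those of the combination were 1.52 ± 0.58 for JUN and 1.57 ± 0.45 for ATF3, both at adjusted p = 0.209.

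Without the 2 libraries that stood apart, standard errors were smaller (0.38, against 0.58 with all libraries, for JUN after daunorubicin). Then 2 members were called higher after daunorubicin, against 3.61% of genes, with the same daunorubicin and DMSO libraries as before. These were ATF3 (1.73 ± 0.28, adjusted p = 0.00281 in edgeR) and JUN (1.65 ± 0.38, adjusted p = 0.0106). FOS (0.81 ± 0.18, adjusted p = 0.00872) and FOSL2 (0.66 ± 0.13, adjusted p = 0.00624) passed the adjusted p but not the fold threshold, as did JUND (0.47, adjusted p = 0.023), FOSL1 (0.34, adjusted p = 0.0341) and JUNB (0.37, adjusted p = 0.0406). After the combination 4 members were then called higher, against 5.9% of genes: JUN (1.97 ± 0.41, adjusted p = 0.00396), ATF3 (1.95 ± 0.30, adjusted p = 0.00107), FOS (1.27 ± 0.19, adjusted p = 0.00108) and EGR1 (1.26 ± 0.20, adjusted p = 0.00114). FOS had 117, 87.4 and 34.3 CPM in the combination libraries, against 45.5, 43.4 and 35.3 CPM with DMSO, and EGR1 had 53.8, 42.4 and 17.6 CPM, against 24.4, 15.2 and 19.1 CPM. For both genes replicates 1 and 2 were above all DMSO libraries and the library labelled replicate 3 was not.

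Cytarabine moved no member in OCIAML3 past the threshold with or without those libraries. Without them 0 members were called, as were 0% of genes, with an unadjusted p under 0.05 in 1.85% of genes. JUN had 11.5, 10.96 and 15.4 CPM after cytarabine, against 13.6, 10.5 and 9.98 CPM with DMSO, and FOSL2 had 159, 174 and 215 CPM, against 173, 165 and 157 CPM. The log2 fold changes of JUN (0.15), ATF3 (0.12) and FOSB (0.03) turned to -0.02, -0.21 and -0.32 without the library labelled replicate 3. Cytarabine set against daunorubicin gave 0 calls by edgeR or DESeq2 with all libraries (0% of genes; unadjusted p under 0.05 in 4 members and 14.9% of genes). Without the 2 libraries ATF3 (-1.94 ± 0.33, adjusted p = 0.00619) and JUN (-1.67 ± 0.44, adjusted p = 0.026) were lower after cytarabine, 2 members against 2.76% of genes.

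The number of OCIAML3 members with every treated library above every DMSO library was 0 for cytarabine (4.41% of genes), 6 for daunorubicin (23.7%) and 0 for the combination (8.15%). The 6 were FOSL2, JUND, ATF3, FOS, FOSL1 and JUN. Without the 2 libraries the numbers were 0 for cytarabine (8.62%), 6 for daunorubicin (23.7%) and 8 for the combination (34.6%).

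**Figure D3:**
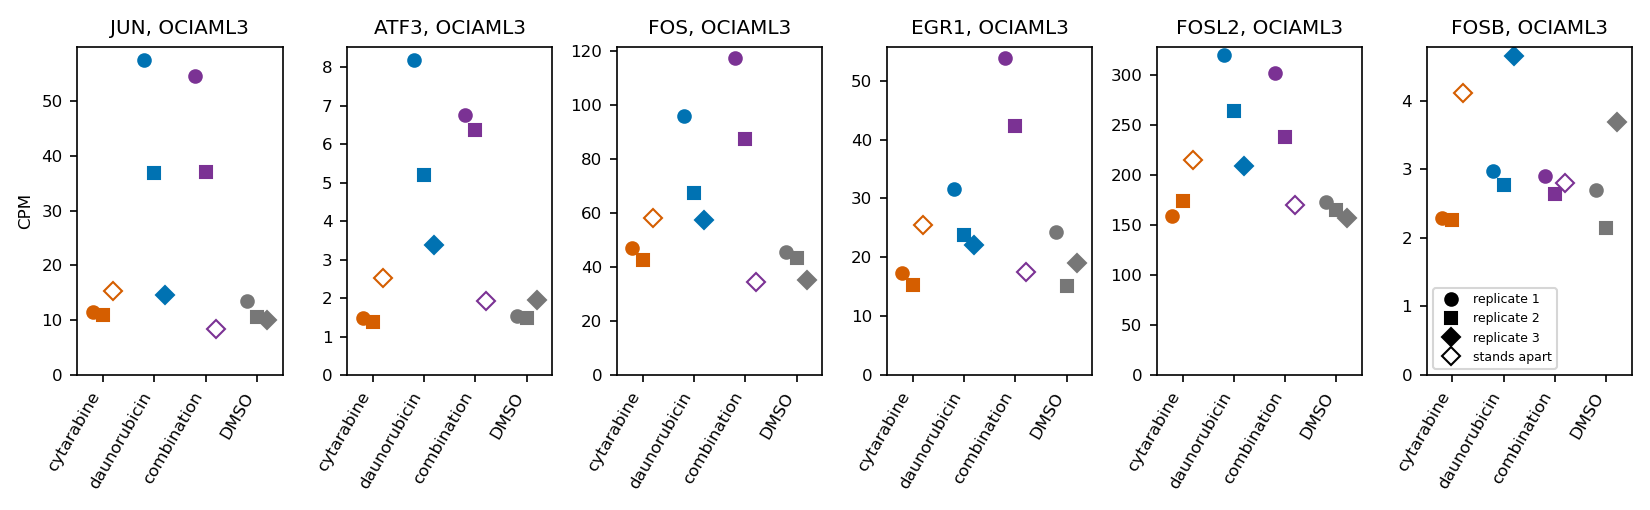
CPM of JUN, ATF3, FOS, EGR1, FOSL2 and FOSB in each OCIAML3 library, by treatment with DMSO at the right; marker shape is the replicate and open markers are the 2 libraries that stood apart. For JUN the combination libraries lie at 54.6, 37.1 and 8.38 CPM, the last being the library labelled replicate 3, and the DMSO libraries between 9.98 and 13.6 CPM.

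The lines were then compared with each other through the difference between their treatment effects, in 1 edgeR fit of all 36 libraries. Between HL60 and MOLM13, 7 members responded more to cytarabine in HL60, against 3.37% of 19053 genes. EGR2 (4.24 ± 1.03), JUN (3.803 ± 0.84) and EGR1 (3.77 ± 0.96) had the largest differences in log2 effect, followed by ATF3 (2.85 ± 0.60), FOSL2 (2.20 ± 0.23), FOSB (2.19 ± 0.55) and JUNB (1.41 ± 0.33). Adjusted p lay between 3.85e-07 for FOSL2 and 0.0124 for EGR1. Without HL60 cytarabine replicate 1 the EGR1 difference was 2.49, and without MOLM13 DMSO replicate 3 that of EGR2 was 2.70, and neither was then called. For the combination 8 members differed, against 10.4% of genes: the same 7 and JUND (1.08 ± 0.33, adjusted p = 0.0153). The JUND call was lost without HL60 combination replicate 1 (0.85), HL60 DMSO replicate 2 or 3, MOLM13 combination replicate 2 or MOLM13 DMSO replicate 3, and that of JUNB without HL60 combination replicate 1 (0.98). JUN differed by 6.04 ± 0.89 (adjusted p = 8.85e-06) and ATF3 by 4.97 ± 0.62 (adjusted p = 8.93e-07). FOS was not called for either treatment, at 2.47 ± 0.93 and 2.19 ± 0.92 (adjusted p = 0.101 and 0.0767).

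For daunorubicin the lines differed in JUN, which was called higher in HL60 and lower in MOLM13. The HL60 effect exceeded that of MOLM13 by 3.30 ± 0.93 (adjusted p = 0.0117 in edgeR), 1 member against 5.9% of genes, and the call was lost without MOLM13 DMSO replicate 3. The MOLM13 effect minus that of OCIAML3 was -2.88 ± 0.91 (adjusted p = 0.0409), 1 member against 1.76% of genes. That call was lost without any 1 of the DMSO or daunorubicin libraries of either line, OCIAML3 daunorubicin replicate 3 excepted. It was also lost in edgeR with the transcript length offset (adjusted p = 0.0533) and with the newer quasi-likelihood method (adjusted p = 0.0761). The 2 OCIAML3 libraries that stood apart are in none of the groups compared, so leaving them out could change little but the standard error. Without them JUN was called at -2.88 ± 0.82 (adjusted p = 0.021, 1.98% of genes). Between HL60 and OCIAML3, 0 members differed by edgeR or DESeq2 in the daunorubicin effect (2.52% of genes did), and 1, FOSB, had an unadjusted p under 0.05 (18.6% of genes). Without the 2 OCIAML3 libraries 0 members were called (2.94% of genes were), and FOSB again had an unadjusted p under 0.05 (19.9% of genes). With replicate number as a block FOSB was called, at 1.39 (adjusted p = 0.0327), when 2.84% of genes were called higher.

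**Figure D4:**
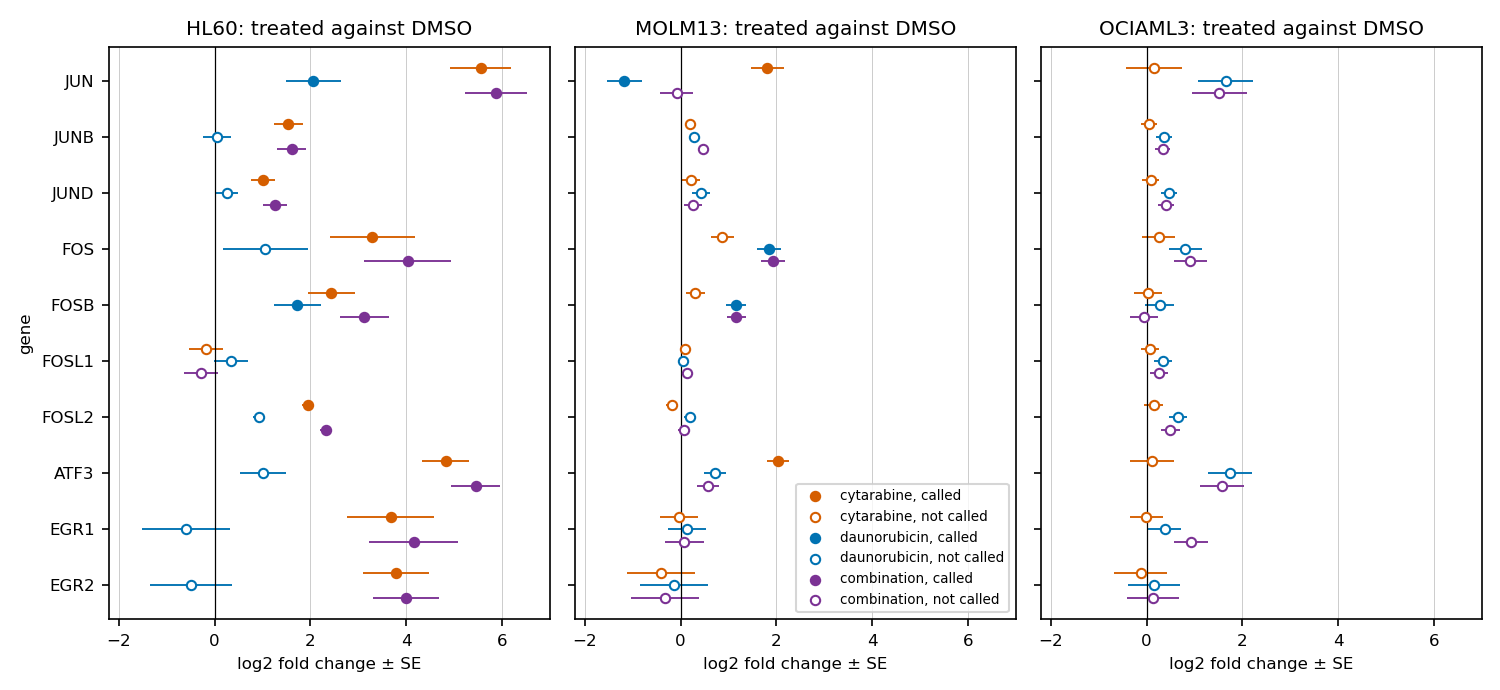
Log2 fold change of each member against DMSO, by line and treatment, from edgeR fits of 12 libraries per line; bars through the points are standard errors and filled points were called. In HL60, JUN is at 5.55 after cytarabine, at 2.06 after daunorubicin and at 5.87 after the combination, against 1.81, -1.17 and -0.08 in MOLM13.

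Across the 12 group means the members did not all vary alike. EGR1 and EGR2 had the highest correlation of log2 level among member pairs (Pearson's r = 0.972 over 12 group means), followed by FOS and FOSL2 (0.898) and by JUNB and EGR2 (0.882), and FOSL1 and ATF3 had the lowest (-0.631). These points share 3 lines, so that a difference between lines alone gives a high value, and they are given as a description. Among 12877 genes that were tested for likeness, JUN was closest to GPR137C (0.983), ATF3 to GTPBP2 (0.985), EGR1 to EGR2, FOSL2 to IL1RN (0.988), FOS to PCNX2 (0.994), JUND to SHOX2 (0.989), FOSB to ZMIZ2 (0.963) and FOSL1 to CPPED1 (0.991). JUNB spanned 1.64 log2 units over the groups, too little for such a comparison. The span was 7.74 for JUN, 6.54 for ATF3, 6.43 for FOS and 4.38 for EGR1.

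As estimated by Salmon, 1 transcript carried most of the counts of ATF3 and of FOSL2, whereas the split was less even between libraries for FOSB and EGR2. In the DMSO-treated HL60 libraries, FOSB-201 held 43.4, 0 and 46.2% of the FOSB counts. EGR2-201 held 100, 0 and 100% of the EGR2 counts there. ATF3-202, which codes for 181 residues, carried 93.2% of the ATF3 counts in HL60, and FOSL2-201 carried 98.0% of the FOSL2 counts there. In HL60, JUN-201, the single-exon coding transcript, carried 78.4, 67.7 and 90.1% of the JUN counts with cytarabine, 70.2, 45.4 and 52.4% with daunorubicin and 78.9, 71.9 and 83.0% with the combination, against 100, 100 and 100% with DMSO. The rest fell to JUN-202, which is annotated as subject to nonsense-mediated decay. Every treated HL60 library was below every DMSO library in the JUN-201 share. No test was made of it, and how often transcripts of other genes differ in this way was not counted. In HL60 the JUN shares rested on 135, 229 and 130 counts with DMSO, against 14398, 2772 and 9242 with cytarabine and 566, 1349 and 399 with daunorubicin. The split was not stable elsewhere: in MOLM13 the JUN-201 share was 100, 0 and 0% after daunorubicin, against 100, 51.0 and 60.9% with DMSO, and in OCIAML3 every treatment overlapped with DMSO (56.7, 100 and 78.5%). JUN-202 reaches further downstream than JUN-201.

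Genes linked to the members were read from lists by role, and the same threshold was used. Over all genes, cytarabine, daunorubicin and the combination gave calls of higher in 13.7, 6.76 and 17% of genes in HL60 and in 7.11, 11.3 and 11.8% in MOLM13, and of lower in 3.12, 0.538 and 6.29% in HL60 and in 1.03, 5.71 and 5.61% in MOLM13. A list with 1 call in a comparison is near these shares and is given as a count only. Among other immediate early genes, 14 of 24 tested were called higher and 2 lower in HL60 cells given cytarabine, 3 and 0 with daunorubicin and 15 and 2 with the combination. In MOLM13 the numbers were 3 and 1 of 25 with cytarabine, 6 and 1 with daunorubicin and 5 and 0 with the combination. SGK1, a kinase induced by serum and glucocorticoids, had 7.18, 2.78 and 5.62 CPM in cytarabine-treated HL60 cells, against 0.297, 0.369 and 0.298 CPM with DMSO. EGR3, the paralog next in the EGR family, had 5.54, 0.495 and 6.47 CPM, against 0.446, 0.570 and 0.0663 CPM (3.47 ± 0.83, adjusted p = 0.00411 in edgeR). SGK1 did not overlap between those groups, whereas EGR3 in cytarabine replicate 2 lay within its DMSO libraries.

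Known AP-1 target genes rose in HL60 in 11 of 15 cases with cytarabine (13.7% of all genes), in 3 with daunorubicin (6.76%) and in 10 with the combination (17%), with 0 lower. In MOLM13 they rose in 5, 6 and 5 of 14, against 7.11, 11.3 and 11.8% of all genes. CXCL8, a neutrophil chemoattractant with an AP-1 site in its promoter, had 793, 177 and 539 CPM after cytarabine in HL60 and 813, 536 and 365 CPM after the combination, against 9.28, 8.68 and 1.46 CPM with DMSO. Its replicate 2 was the lowest of the cytarabine libraries, as was that of every member but FOSL2. This order of libraries was not tested. Of 9 EGR1 target genes tested, 5, 1 and 5 were higher in HL60 after cytarabine, daunorubicin and the combination (0, 0 and 1 lower) and 2, 4 and 2 in MOLM13 (0 lower). The 1 called higher after daunorubicin in HL60 is near the share over all genes. ICAM1, an adhesion molecule of leukocytes, had 49.3, 48.4 and 70.5 CPM after cytarabine, against 1.52, 1.37 and 0.962 CPM with DMSO, in HL60 (5.40 ± 0.36, adjusted p = 1.03e-06).

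Feedback inhibitors of these pathways include the DUSP phosphatases that switch off MAP kinases. In HL60 they were higher in 4 of 13 cases with cytarabine (13.7% of all genes), 1 with daunorubicin (6.76%) and 7 with the combination (17%). The 1 with daunorubicin is near the share over all genes. In MOLM13 they were higher in 0, 1 and 1 of 14, which did not exceed the share over all genes. They were lower there in 1, 3 and 1 of 14, against 1.03, 5.71 and 5.61% of all genes. The 3 lower after daunorubicin were DUSP2, SPRY1 and SPRY4. DUSP1 had 10.8, 2.41 and 4.44 CPM in cytarabine-treated, against 0.446, 1.44 and 0.365 CPM in DMSO-treated HL60 cells (2.90 ± 0.75). Other basic leucine zipper genes were called higher in 4, 1 and 4 of 15 cases in HL60, against 13.7, 6.76 and 17% of all genes. Among them DDIT3, a stress factor that is induced with ATF3 in the unfolded protein response, had 91.3, 33.8 and 60.1 CPM after cytarabine, against 10.8, 10.1 and 12.5 CPM with DMSO (2.42 ± 0.32, adjusted p = 7.06e-05 in edgeR). Of 16 upstream kinases 1 was higher after each treatment in HL60, MAPK11 (p38 beta), and MAPK13 (p38 delta) was lower after cytarabine and after the combination. In MOLM13 MAPK11 was higher and MAP2K6 lower after cytarabine and MAPK13 was higher after daunorubicin. These counts of kinases called higher do not exceed the shares over all genes. The 11 SRF and CREB factors tested, which bind the promoters of immediate early genes, had a median log2 fold change of 0.01 after cytarabine in HL60. Heat shock genes, which respond to misfolded protein, were lower in HL60 in 4 of 8 cases after cytarabine (3.12% of all genes) and 5 after the combination (6.29%). In MOLM13 5 of 8 were lower with daunorubicin (5.71%) and with the combination (5.61%). BAG3 was higher with the combination in HL60. HSPE1 had 128, 107 and 179.9 CPM after cytarabine, against 353, 255 and 307 CPM with DMSO, in HL60. In OCIAML3 0 genes of any list were called with all libraries, as were 0% of all genes.

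**Figure D5:**
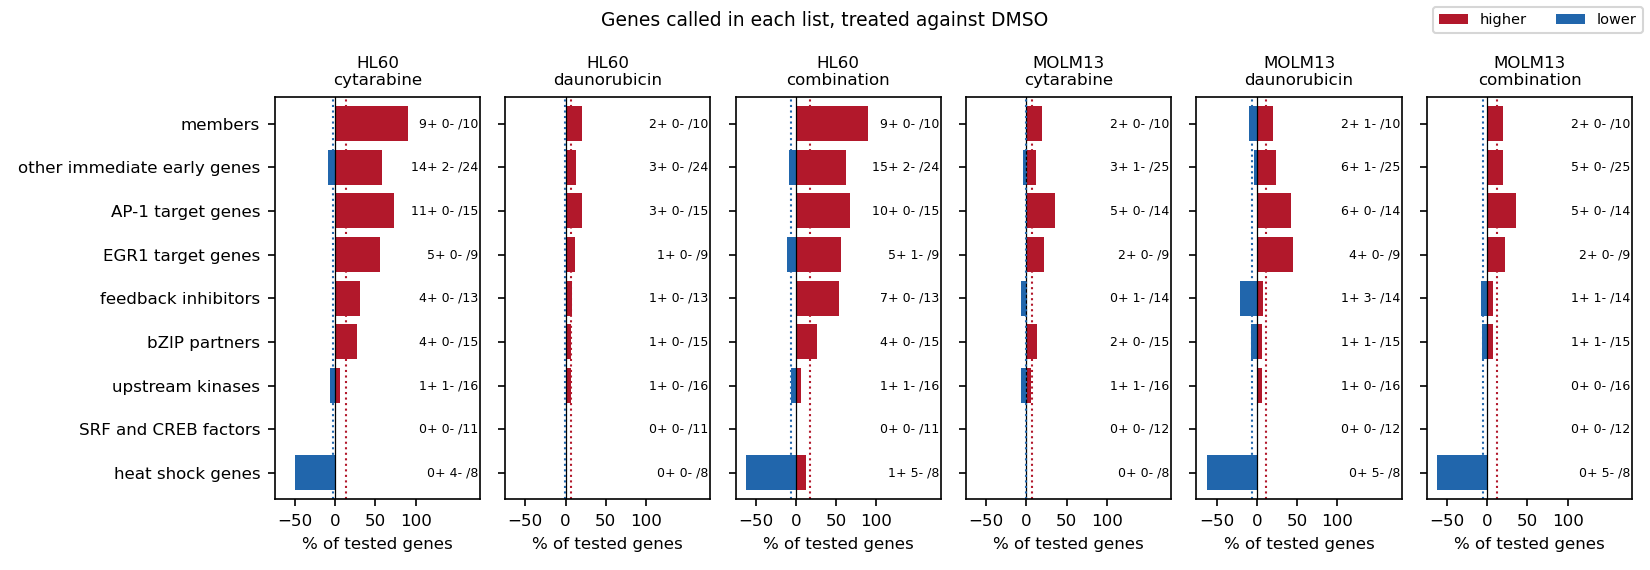
Percentage of the tested genes of each list called higher (right of 0) or lower (left of 0) against DMSO, in HL60 and MOLM13; dotted lines mark the percentage over all genes, and the text beside each row gives the numbers higher, lower and tested. The 10 members are called higher in 9 cases after cytarabine and after the combination in HL60, and in 2 after each treatment in MOLM13.

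Markers of other cell types also moved. Monocyte and macrophage markers (12 genes) summed to 35.2 to 75.2 CPM with cytarabine, 19.9 to 43.1 CPM with daunorubicin and 60.4 to 114 CPM with the combination, against 10.5 to 16.9 CPM with DMSO, and 5, 3 and 5 of 7 tested were called higher, against 13.7, 6.76 and 17% of all genes. ITGAM, an integrin chain of monocytes and granulocytes, had 22.4, 40.8 and 14.6 CPM after cytarabine, against 5.27, 2.68 and 2.32 CPM with DMSO. It was highest in cytarabine replicate 2, where every member but FOSL2 had its lowest cytarabine value. The order of the libraries in this marker and in the members was not tested. Of these markers, MRC1, MARCO and MSR1 were at 0 in every cytarabine-treated HL60 library. B cell markers (3 genes) summed to 8.53 to 9.52 CPM after cytarabine, against 1.96 to 2.28 CPM with DMSO, mostly CD79A. COL1A1 averaged 1.95 CPM after cytarabine, against 0.131 CPM with DMSO. Myeloid markers summed to 2056 to 2549 CPM after cytarabine in HL60, against 5384 to 6917 CPM with DMSO, yet single markers moved both ways. Of 9 tested after cytarabine, 3 were called higher (PTPRC, FLT3 and KIT), against 13.7% of all genes. Another 2 were called lower (MPO and PRTN3), against 3.12%. In MOLM13 the monocyte and macrophage markers summed to 2258 to 2331 CPM after cytarabine, 1761 to 2707 CPM after daunorubicin and 1710 to 2310 CPM after the combination, against 881 to 2027 CPM with DMSO, which overlapped in the last 2 treatments. There 3, 4 and 4 of 9 tested were called higher, against 7.11, 11.3 and 11.8% of all genes, ITGAM among them after each treatment. The part of these genes in the members' changes was not tested.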

How the data were processed

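Total RNA of HL60, MOLM13 and OCIAML3 cells was sequenced in paired ends without strand information. The authors checked reads with FastQC 0.11.9 and used Salmon 1.8.0 for transcript abundance, with Ensembl transcripts of GRCh38 whose release is not given in the sources used here. The deposited files hold, per library and transcript, an estimated count, a TPM value (scaled by transcript length and library total) and an effective length, which Salmon made and which carry no scaling between libraries beyond that of TPM.

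Each library listed 252199 transcripts. Of these, 235378 were matched by transcript ID to 59041 genes of GENCODE 44, and the other 16821, which held 3.993 to 4.518% of the counts, were not used. Gene values were the sums of TPM and of the estimated counts, with the summed counts rounded. Genes were filtered with filterByExpr (minimum count 10, minimum total 15), normalized with TMM and tested per line over 12 libraries with edgeR 4.0.16 (R 4.3.3, limma 3.58.1) in its quasi-likelihood test, with Benjamini-Hochberg adjustment over all genes tested. A gene was called at an adjusted p under 0.05 with a log2 fold change above 1 or below -1, and non-additive effects at the adjusted p alone. Differences between lines came from 1 fit of all 36 libraries. The standard error of a log2 fold change was obtained from the fold change and the F statistic. Printed CPM used TMM over all 36 libraries. The tests were checked on simulated counts that had 1 fixed spread between independent libraries. That check does not cover genes with a wider spread between replicates, paired libraries or libraries that stand apart. The depth of 25067734 to 47322144 counts sets the precision of the low genes such as EGR2.

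The alternatives were RLE normalization, DESeq2 1.42.0, no filter and a stricter one (1 CPM in 3 libraries), a transcript length offset, the newer quasi-likelihood method, a replicate block, a fit of all 36 libraries, omission of the 2 OCIAML3 libraries that stood apart, and omission of each library in turn (72 fits). Within each group, no libraries were duplicates of each other, and libraries of different groups were not compared in this way. Deviations from the group means correlated between same-numbered HL60 libraries at 0.127 to 0.296 over 6 pairs of groups. Since every pair exceeded 0.1, HL60 libraries were taken as paired. The labels do not state this, and the main tests had no term for it. All 10 members were named. Genes named as most like a member had the highest Pearson's r over 12 group means. The members and lists were chosen with earlier results of these data known. Python 3.11.15 with numpy 2.4.6, pandas 2.3.3 and matplotlib 3.10.9 was used.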

Additional observations from a re-analysis of the deposited data

Results flagged for a closer look

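The results below are differences between lines in the effect of the same treatment, each tested as an interaction in the edgeR fit of all 36 libraries. JUN stood out with differences of 6.04 ± 0.89 for the combination, 3.803 ± 0.84 for cytarabine and 3.30 ± 0.93 for daunorubicin on the log2 scale, HL60 minus MOLM13, and of -2.88 ± 0.91 for daunorubicin, MOLM13 minus OCIAML3. Adjusted p for JUN was 8.85e-06, 0.00409, 0.0117 and 0.0409 in that order. Of all genes, 10.4, 3.37 and 5.9% were called higher in the comparisons of HL60 with MOLM13, and 1.76% lower in the last. The daunorubicin call of HL60 minus MOLM13 was lost without MOLM13 DMSO replicate 3. That of MOLM13 minus OCIAML3 was lost in most fits that left out a library compared, with the length offset and with the newer method. In the daunorubicin comparison JUN was above every DMSO library in all 3 HL60 libraries and below every DMSO library in all 3 MOLM13 libraries.

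For the combination, HL60 minus MOLM13, the other differences were 4.97 for ATF3 (adjusted p = 8.93e-07), 4.41 for EGR2, 4.17 for EGR1, 2.34 for FOSL2 (adjusted p = 2.45e-08), 2.05 for FOSB, 1.22 for JUNB and 1.08 for JUND, by edgeR. For cytarabine they were 4.24 for EGR2, 3.77 for EGR1, 2.85 for ATF3, 2.20 for FOSL2, 2.19 for FOSB and 1.41 for JUNB. The combination calls of JUND and JUNB were each lost without HL60 combination replicate 1. The cytarabine call of EGR1 was lost without HL60 cytarabine replicate 1, and that of EGR2 without MOLM13 DMSO replicate 3. EGR2 rested on few counts in HL60, and ITGAM was called higher after each treatment in HL60 and in MOLM13, with 5, 3 and 5 of 7 monocyte and macrophage markers called higher in HL60 and 3, 4 and 4 of 9 in MOLM13 after cytarabine, daunorubicin and the combination. Their part in these differences was not tested.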

How the results depend on the processing

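Of 141 results for single members, 141 kept their direction and their side of the threshold with RLE normalization, as did 141 with the stricter filter. The count of called members in HL60 after daunorubicin (2) was 4 without a filter and 1 with the newer quasi-likelihood method, and the count of non-additive members in HL60 (0) was 1 with DESeq2 and 4 without a filter. The transcript length offset gave 4 members for cytarabine against daunorubicin in MOLM13 (2) and 0 for the daunorubicin effect of MOLM13 minus OCIAML3 (1), which was 0 with the newer method too. The newer method also did not call ATF3 in DMSO, HL60 minus OCIAML3 (1.16). In OCIAML3, counts of 0 became 1 after daunorubicin with DESeq2 and in the fit of all 36 libraries, and, without the 2 libraries that stood apart, 2 after daunorubicin, 4 after the combination and 2 for cytarabine against daunorubicin. With the length offset EGR2 was 0.041 in HL60 after daunorubicin, FOSL1 -0.0053 in MOLM13 after daunorubicin, and in OCIAML3 JUND was -0.18 and EGR2 0.33 after cytarabine and EGR2 -0.091 after daunorubicin, each on the other side of 0 from its reported value. Without the 2 OCIAML3 libraries JUN was -0.017, FOSB -0.32 and ATF3 -0.21 after cytarabine. The share of all genes called was not counted under DESeq2, the filter settings, the length offset, the newer method or the fit of all 36 libraries. The causes were not tested.

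With the replicate number as a block, 133 of the 141 results did not change in direction or call. The count of non-additive members was 1 in HL60 (FOSL2), when 10.7% of genes passed in the same direction. It was 2 in MOLM13 (JUND, at -0.38, was added), where the share of all genes was not counted under the block. In the daunorubicin effect of HL60 minus OCIAML3, 1 member differed (FOSB, 1.39), when 2.84% of genes were called higher. Under the block EGR1 was 0.0066 in MOLM13 after cytarabine, EGR2 0.016 in MOLM13 after daunorubicin, and EGR1 0.036 and EGR2 0.065 in OCIAML3 after cytarabine, opposite in sign to the reported values. Same-numbered libraries deviated together at correlations of 0.0276 to 0.201 in MOLM13 and -0.171 to 0.376 in OCIAML3, so these lines were not taken as paired.

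Leaving out 1 library in turn gave 7 to 9 called members in HL60 after cytarabine, 0 to 3 after daunorubicin and 5 to 7 for cytarabine against daunorubicin; 2 to 3 in MOLM13 after daunorubicin, 2 to 4 for cytarabine against daunorubicin and 1 to 2 for non-additive effects; and 0 to 2 in OCIAML3 after daunorubicin and 0 to 4 after the combination, the higher value of each without combination replicate 3. It gave 6 to 9 members for the cytarabine effect of HL60 minus MOLM13, 0 to 1 for daunorubicin and 6 to 9 for the combination. For the daunorubicin effect of MOLM13 minus OCIAML3 it gave 0 to 1. In DMSO it gave 4 to 6 for HL60 against MOLM13, 3 to 6 for HL60 against OCIAML3 and 2 to 3 for MOLM13 against OCIAML3. The share of all genes called was not counted in these fits, so these counts of members are a description only. Log2 values that crossed 0 ranged in HL60 from -0.60 to 0.10 for FOSL1 after cytarabine, from -0.064 to 0.16 for JUNB and -0.97 to 0.0033 for EGR1 after daunorubicin, and from -0.20 to 2.35 for the non-additive effect of EGR1. In MOLM13 they ranged from -0.35 to 0.33 for EGR1 and -1.06 to 1.12 for EGR2 after cytarabine, from -0.039 to 0.087 for FOSL1, -0.18 to 0.50 for EGR1 and -0.58 to 1.399 for EGR2 after daunorubicin, and from -0.34 to 0.41 for JUN, -0.041 to 0.16 for FOSL2, -0.27 to 0.44 for EGR1 and -0.77 to 1.21 for EGR2 after the combination. In OCIAML3 they ranged from -0.017 to 0.30 for JUN, -0.010 to 0.099 for JUNB, -0.32 to 0.26 for FOSB, -0.21 to 0.28 for ATF3, -0.25 to 0.18 for EGR1 and -0.43 to 0.21 for EGR2 after cytarabine, from -0.013 to 0.51 for FOSB and -0.28 to 0.52 for EGR2 after daunorubicin, and from -0.23 to 0.18 for FOSB and -0.20 to 0.54 for EGR2 after the combination. None of these had been called. With 3 libraries per group, low genes such as EGR2 give wide errors.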
